A study of Mus musculus with 4 samples.

Results

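The 47 genes described here encode the DNA replication machinery, from the proteins that mark and license replication origins to the helicase, polymerases, clamp, clamp loader and ligase of the working fork. They were chosen by gene name and role, with earlier results of these data known, from a table of 46095 gene symbols counted in RNA of mouse stomach. The table held 4 samples, all from C57BL/6 mice at 12 weeks of age. WT was sampled as replicates 1 and 2; by the study's methods these were *Myc* fl/fl mice, named without a Cre allele, so they carry the Cre-dependent *c-Myc* allele on both chromosomes. The genotype Atp4b-cre;MycOE (*Atp4b-cre* with *Myc* fl/+) was also sampled as replicates 1 and 2, and is called *c-Myc* transgenic below. In these mice Cre was driven by the promoter of *Atp4b*, the gene of the proton pump beta subunit of acid-secreting parietal cells. Human *c-Myc* was switched on in that lineage, while RNA was taken from stomach tissue with all its cell types. The comparison asked which replication genes differed in RNA level between the transgenic stomach and WT.

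Replication starts at origins bound by the origin recognition complex (ORC). In G1 phase, ORC, CDC6 and CDT1 load the ring-shaped MCM2-7 helicase onto DNA, a step called licensing, and geminin holds CDT1 inactive once S phase has begun. The kinase CDC7 with its activator DBF4, together with cyclin-dependent kinases, then converts the loaded ring into the active helicase by the addition of CDC45 and GINS. Polymerase alpha-primase lays primers, replication factor C loads the PCNA clamp, and polymerases delta and epsilon extend the strands. In the gastric glands these genes are mainly used by dividing progenitors of the isthmus and neck, since mature parietal and chief cells seldom divide.

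The samples held 30260305 to 41463647 counts each. In the deposited table, the rows of the transgenic columns were in another order than the gene names, and the counts of both transgenic columns were therefore re-assigned in row order to the names sorted by character code. None of the 47 replication genes kept its row: 27 moved by 397 rows, 19 by 1 to 6 rows and *Lig1* by 3020 rows. Over the 61 rows around each gene, the correlation across genes between the log counts of the WT and transgenic samples was 0.935 to 0.990 after re-sorting and -0.236 to 0.319 as deposited. As deposited, 7 of the genes (*Cdt1*, *Pola2*, *Pold3*, *Rfc2*, *Rfc3*, *Rfc4* and *Lig1*) had 0 counts in both transgenic columns, and the transgenic counts beside *Mcm3* were those of *Mcm4*. All values below are from the re-sorted table.

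**Figure D1:**
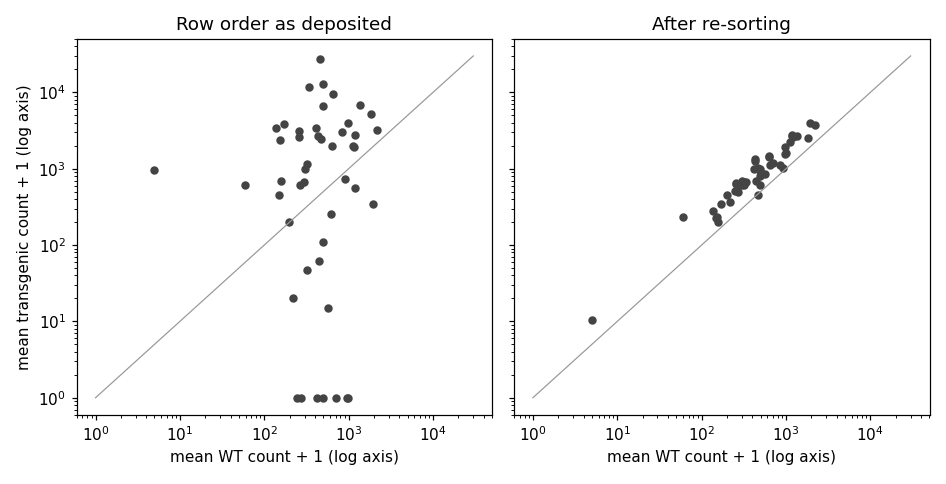
Mean transgenic count + 1 against mean WT count + 1 on log axes, 1 point for each of the 47 replication genes, with the row order as deposited (left) and after re-sorting (right); the line marks equal counts. The re-sorted points lie near the line, and 7 of the deposited ones lie at 0 transgenic counts.

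In the *c-Myc* transgenic stomach, 17 of the 46 replication genes that could be tested rose and 0 fell by edgeR's quasi-likelihood test. A gene was called at a Benjamini-Hochberg adjusted p under 0.05 over all 17643 genes tested and a fold change above 1.5; of all genes, 5.65% were called higher and 5.08% lower. The genes that rose were *Orc1*, *Cdc6*, *Cdt1*, all 6 of *Mcm2* to *Mcm7*, *Mcm10*, *Dbf4*, *Pold1*, *Pold2*, *Pole*, *Rfc1*, *Fen1* and *Wdhd1*. Their log2 fold changes ranged from 0.64 for *Mcm4* to 1.65 for *Orc1*. The fold change was above 0 for 43 of the 46 genes, against 50.9% of all genes, and its median was 0.64, against 0.01 for all genes. Both transgenic samples lay above both WT samples for 38 genes, against 33.3% of all genes. Both lay below for *Gmnn* alone, against 31.5% of all genes, and *Gmnn* was also the single gene on the lower side at an unadjusted p under 0.05; 30 genes were on the higher side, against 17.7% of all genes. The summed level of the 46 genes was 980 and 867 CPM (counts relative to the library total, scaled by edgeR's TMM factors) in WT replicates 1 and 2, and 1400 and 1345 CPM in transgenic replicates 1 and 2.

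The number of calls depended on transgenic replicate 1. Without it edgeR called 4 of the replication genes higher, against 4.2% of all genes, and without transgenic replicate 2 it called 14, against 5.82%; the lone transgenic sample was then assumed to vary like WT. The fold changes moved less than the calls: without transgenic replicate 1 their median was 0.61, 44 of the 47 genes then tested were above 0 and 25 were higher at an unadjusted p under 0.05, against 14.6% of all genes. With 1 WT sample left, the median log2 fold change of the replication genes was 0.73 without WT replicate 1. It was 0.52 without WT replicate 2, where 6 of the 47 genes were below 0. In these fits the spread came from the 2 transgenic samples alone. The smallest adjusted p of a replication gene was then 0.196 without WT replicate 1 and 0.232 without WT replicate 2, and 0 genes of the whole table were called, so these fits do not show whether the calls hold. At an unadjusted p under 0.05, 27 replication genes were higher without WT replicate 1, against 9.89% of all genes, and 19 without WT replicate 2, against 9.97%. With DESeq2, 23 rose and 0 fell, including all 17 of the edgeR calls, against 8.38% and 9.65% of the genes for which it gave an adjusted p. With plain library sizes in place of TMM factors edgeR called 26 higher and 0 lower, against 12.9% and 4.19% of all genes. In the table as deposited it called 27 higher and 15 lower, against 42.7% and 41.5% of all genes. WT replicate 2 differed in sex from the other 3 samples (*Xist*, the RNA of the inactive X chromosome, had 17846 counts there and 85 to 201 elsewhere), so the spread within WT includes that difference, and its part in the calls was not tested.

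**Figure D2:**
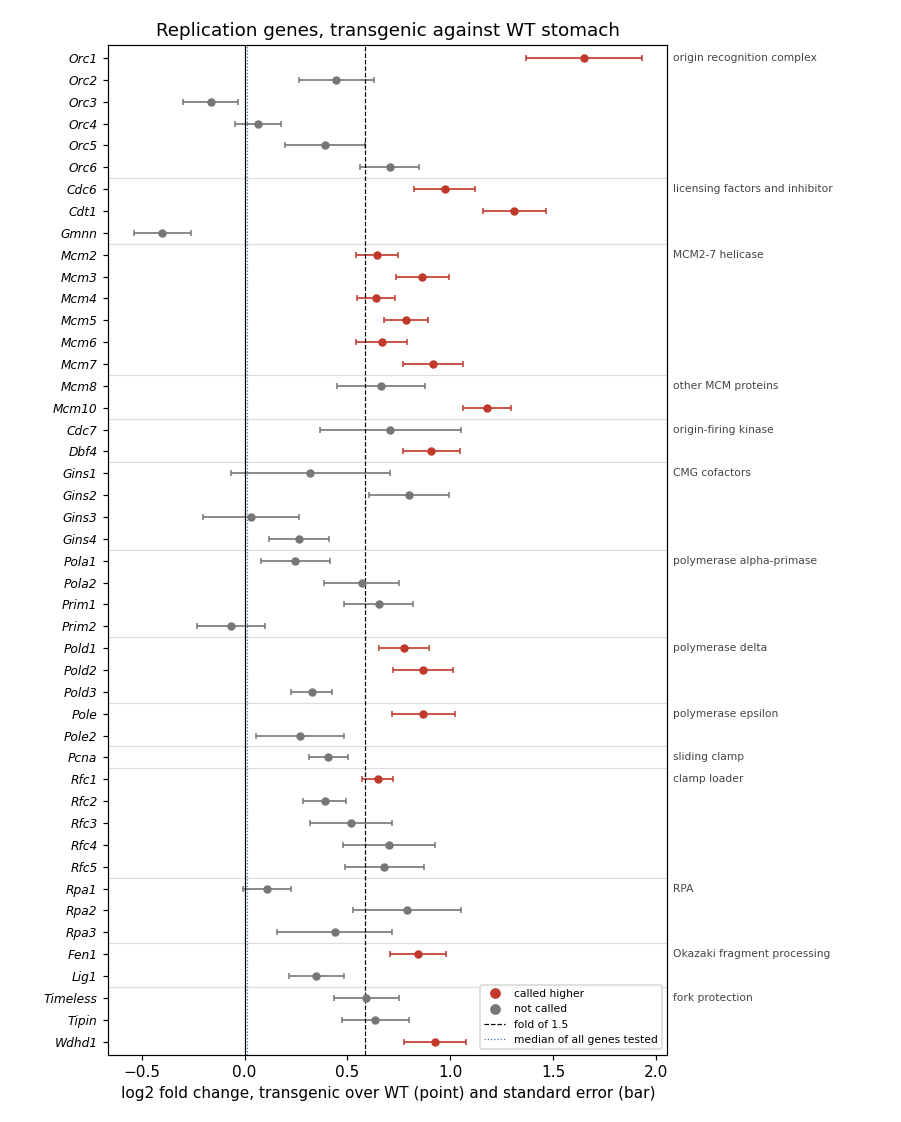
Log2 fold change (transgenic against WT, n = 2 samples each) of the 46 replication genes tested, grouped by role, with bars of 1 SE; called genes are red, the dashed line marks a fold of 1.5 and the dotted line the median of all genes tested. The 6 genes of the MCM2-7 helicase all lie between 0.64 and 0.91, while *Gmnn* lies lowest at -0.40.

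Among the 6 ORC genes, *Orc1* rose and the others did not pass the test. ORC1 is the largest ORC subunit and the subunit whose protein is turned over in the cell cycle of mammals. *Orc1* was at 2.12 and 1.65 CPM in WT and at 6.31 and 5.53 CPM in transgenic samples, a log2 fold change of 1.65 (SE 0.28, adjusted p = 0.0378). This was the largest fold change of all replication genes, and it rested on 71 and 46 reads in the WT libraries against 214 and 247 in the transgenic ones. The next was *Orc6*, the small subunit that joins the complex loosely, at 9.36 and 10.001 CPM in WT and 15.95 and 15.6 CPM in transgenic samples (log2 fold change 0.70, SE 0.14, adjusted p = 0.0503). The core subunits gave smaller differences, with log2 fold changes of 0.45 for *Orc2*, 0.39 for *Orc5*, 0.07 for *Orc4* and -0.16 for *Orc3* (adjusted p = 0.170 to 0.720). The samples of the groups overlapped for *Orc3* and *Orc4*. Relative to *Orc4*, *Orc1* counts were 0.0748 and 0.0634 in WT and 0.227 and 0.190 in transgenic samples. Of the exon bases of *Orc1*, 10.8% also lie in exons of *Gm12743*, and of *Orc2* 29.8% in exons of *Nif3l1*; how strand was treated in counting is not given in the sources used here.

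Both loading factors rose, while geminin, the inhibitor of CDT1, had a lower RNA level without passing the test. *Cdt1* (chr8:122568015-122573554, plus strand, GRCm38), which brings the MCM ring to ORC, was at 13.0 and 14.8 CPM in WT and at 37.4 and 31.6 CPM in transgenic samples (log2 fold change 1.31, SE 0.15, adjusted p = 0.0228). *Cdc6*, the ATPase that closes ORC around DNA, was at 8.55 and 8.21 CPM in WT and at 17.0 and 15.9 CPM in transgenic samples (log2 fold change 0.97, SE 0.15, adjusted p = 0.0323). *Gmnn* (chr13:24751845-24761923, minus strand), which encodes geminin, was at 15.2 and 15.0 CPM in WT and at 11.1 and 11.8 CPM in transgenic samples. The groups did not overlap, with a log2 fold change of -0.40 (SE 0.14, adjusted p = 0.132). The ratio of *Cdt1* to *Gmnn* counts was 0.855 and 0.990 in WT and 3.36 and 2.69 in transgenic samples. The ratio of *Cdc6* to *Gmnn* counts was 0.564 and 0.548 in WT and 1.53 and 1.36 in transgenic samples. These ratios compare counts of RNAs of unequal length, so their change between samples can be read but not their level. RNA levels do not report geminin or CDT1 protein, which are both set by degradation in the cell cycle.

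**Figure D3:**
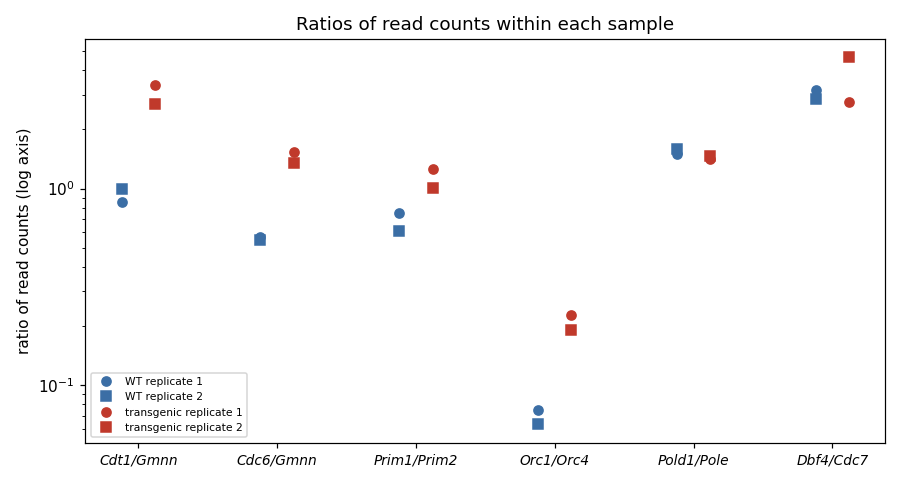
Ratios of read counts of 6 pairs of replication genes on a log axis; each point is 1 sample, with colour for the group and shape for the replicate. The *Cdt1* to *Gmnn* ratio is 0.855 and 0.990 in WT and 3.36 and 2.69 in transgenic samples, while the *Pold1* to *Pole* ratio stays between 1.41 and 1.59.

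All 6 genes of the MCM2-7 helicase rose with all samples, by edgeR and by DESeq2. Without transgenic replicate 1, edgeR called 1 of the 6 (*Mcm5*), with log2 fold changes of 0.58 to 0.87, and without transgenic replicate 2 it called 4, *Mcm2* and *Mcm6* being lost at adjusted p = 0.0509 and 0.0591. Its 6 subunits form a ring around the leading-strand template, and their genes lie on chromosomes 1, 5, 6, 8 and 16. Their log2 fold changes were close to each other, from 0.64 to 0.91 with SE from 0.09 to 0.15. *Mcm7* was at 42.7 and 33.2 CPM in WT and 73.7 and 69.4 CPM in transgenic samples (log2 fold change 0.91, adjusted p = 0.0343). *Mcm3* was at 41.2 and 34.1 CPM in WT and 71.6 and 65.3 CPM in transgenic samples (log2 fold change 0.86, adjusted p = 0.0309). *Mcm5* was at 41.7 and 36.0 CPM in WT and 68.5 and 65.3 CPM in transgenic samples (log2 fold change 0.78, adjusted p = 0.0279). In these 3 genes, as in the other helicase genes given next, the 2 samples of a group lay closer together than the groups did. *Mcm6* was at 69.2 and 56.4 CPM in WT and 98.9 and 100.6 CPM in transgenic samples (log2 fold change 0.67, adjusted p = 0.0423). *Mcm2* was at 38.6 and 33.9 CPM in WT and at 56.6 CPM in both transgenic samples (log2 fold change 0.64, adjusted p = 0.0335). *Mcm4* was at 32.1 and 31.6 CPM in WT and 51.5 and 47.6 CPM in transgenic samples (log2 fold change 0.64, adjusted p = 0.0302). The smallest change on leaving out a library was 0.52, for *Mcm6* without WT replicate 2, and *Mcm2* and *Mcm4* also came under the fold threshold, at 0.55 without WT replicate 2 and 0.58 without transgenic replicate 1.

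Exons of *Mcm7* share 7.25% of their bases with *Ap4m1* and smaller parts with *Cops6* and with *Mir25* and *Mir93*, which lie inside the gene. Some proportions among the subunits overlapped between the groups and others did not. Per kilobase of exon, *Mcm6* was the highest and *Mcm2* the lowest subunit in every sample, and their ratio was 2.67 and 2.48 in WT and 2.60 and 2.65 in transgenic samples. The ratio to *Mcm2* per kilobase also overlapped for *Mcm4*. It did not overlap for *Mcm7*, at 1.74 and 1.54 in WT and 2.05 and 1.93 in transgenic samples, for *Mcm3* (1.98 and 1.86 against 2.34 and 2.14) or for *Mcm5* (1.88 and 1.85 against 2.11 and 2.010), and these differences were not tested. Of all counts on replication genes, the 6 helicase genes took 27.1% and 26.0% in WT and 30.05% and 30.1% in transgenic samples. The ratio of summed MCM2-7 counts to summed ORC counts was 2.44 and 2.21 in WT and 3.148 and 3.405 in transgenic samples.

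Of the other MCM proteins, *Mcm10*, which binds the helicase and helps to activate it, rose, with the smallest adjusted p of all replication genes. It was at 14.5 and 13.7 CPM in WT and at 32.8 and 30.96 CPM in transgenic samples (log2 fold change 1.18, SE 0.12, adjusted p = 0.0198). *Mcm8*, which acts in recombination repair, was at 5.99 and 5.02 CPM in WT and 8.17 and 9.29 CPM in transgenic samples (log2 fold change 0.66, SE 0.21, adjusted p = 0.112). The activator *Dbf4* of the origin-firing kinase rose from 14.3 and 12.4 CPM in WT to 25.6 and 24.6 CPM in transgenic samples (log2 fold change 0.91, SE 0.14, adjusted p = 0.0325). Its catalytic partner *Cdc7* was at 4.53 and 4.37 CPM in WT and at 9.29 and 5.28 CPM in transgenic samples (log2 fold change 0.71, SE 0.34, adjusted p = 0.229). The transgenic *Cdc7* values lay far apart, so that the *Dbf4* to *Cdc7* ratio was 3.16 and 2.84 in WT and 2.76 and 4.66 in transgenic samples.

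None of the genes that complete the active helicase passed the test. The 4 GINS genes encode a small ring-like complex that clips CDC45 to MCM2-7. *Gins2* was at 6.14 and 6.74 CPM in WT and 10.23 and 12.2 CPM in transgenic samples (log2 fold change 0.80, SE 0.19, adjusted p = 0.0678). The other members gave log2 fold changes of 0.32 (*Gins1*), 0.27 (*Gins4*) and 0.03 (*Gins3*), with adjusted p = 0.275 to 0.941, and the groups overlapped for *Gins1* and *Gins3*. The exons of *Gins2* lie to 67.3% within exons of *Gse1*, so reads of the 2 genes may not be told apart. *Cdc45* was not tested, since WT replicates held 6 and 2 of its reads and transgenic replicates 6 and 13. These low counts were not read as absence of its RNA, because the counting tool and its treatment of the gene are not given in the sources used here.

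Of the 2 main replicative polymerases, *Pold1*, *Pold2* and *Pole* rose, while *Pold3* and *Pole2* did not pass the test. No gene of polymerase alpha-primase passed it. *Pold1*, the catalytic subunit of polymerase delta, was at 15.5 and 14.4 CPM in WT and 25.4 and 25.7 CPM in transgenic samples (log2 fold change 0.77, SE 0.12, adjusted p = 0.0335). Its partner *Pold2* was at 22.1 and 18.7 CPM in WT and 39.7 and 34.65 CPM in transgenic samples (log2 fold change 0.87, SE 0.14, adjusted p = 0.0366). *Pold3*, an accessory subunit that binds PCNA, was at 30.8 and 32.1 CPM in WT and 40.98 and 37.9 CPM in transgenic samples (log2 fold change 0.33, SE 0.10, adjusted p = 0.101). *Pole*, the catalytic subunit of the leading-strand polymerase epsilon, was at 10.4 and 9.07 CPM in WT and 18.1 and 17.5 CPM in transgenic samples (log2 fold change 0.87, SE 0.15, adjusted p = 0.0391). The 2 catalytic genes rose side by side, with a *Pold1* to *Pole* count ratio of 1.49 and 1.59 in WT and 1.41 and 1.47 in transgenic samples. *Pole2*, the second subunit of polymerase epsilon, had a log2 fold change of 0.27 (SE 0.21, adjusted p = 0.429).

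Within polymerase alpha-primase, neither primase gene passed the test, and the difference between them was not tested. *Prim1*, the catalytic primase subunit, was at 12.0 and 9.79 CPM in WT and 17.3 and 17.1 CPM in transgenic samples (log2 fold change 0.65, SE 0.17, adjusted p = 0.0749). *Prim2*, the regulatory subunit, was at 15.9 and 16.0 CPM in WT and 13.7 and 16.9 CPM in transgenic samples (log2 fold change -0.07, SE 0.16, adjusted p = 0.814). Their count ratio was 0.755 and 0.611 in WT and 1.26 and 1.012 in transgenic samples, with no overlap between groups. *Pola2*, the accessory polymerase subunit, had a log2 fold change of 0.57 (SE 0.18, adjusted p = 0.109). *Pola1*, the catalytic subunit, had one of 0.25 (SE 0.17, adjusted p = 0.366) and is X-linked, which touches the sex difference of WT replicate 2.

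The clamp and its loader gave 1 call. *Pcna*, the sliding clamp that tethers polymerases to DNA, was at 75.0 and 66.2 CPM in WT and at 92.2 and 94.9 CPM in transgenic samples, without overlap (log2 fold change 0.41, SE 0.09, adjusted p = 0.0631). *Rfc1*, the large subunit of the clamp loader, was at 44.4 and 43.2 CPM in WT and 67.9 and 69.2 CPM in transgenic samples (log2 fold change 0.65, SE 0.08, adjusted p = 0.0228). The small subunits, which RFC1 shares a ring with, gave log2 fold changes of 0.70 (*Rfc4*), 0.68 (*Rfc5*), 0.52 (*Rfc3*) and 0.39 (*Rfc2*), with adjusted p = 0.0806 to 0.155, and the groups overlapped for none of them. The pseudogene *Pcna-ps2* took 10 and 4 reads in WT and 11 and 19 in transgenic libraries, and *Pcna-ps1* took 0. The *Pcna* to *Rfc1* count ratio was 1.69 and 1.53 in WT and 1.36 and 1.37 in transgenic samples. Exons of *Rfc2*, *Rfc4* and *Rfc5* share 15.1%, 12.7% and 10.7% of their bases with *Lat2*, *Eif4a2* and *Wsb2*.

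The single-strand binding complex RPA did not pass the test in any of its 3 genes. *Rpa1*, the large DNA-binding subunit, was at 64.2 and 53.8 CPM in WT and 61.5 and 65.75 CPM in transgenic samples, with overlapping groups (log2 fold change 0.11, SE 0.12, adjusted p = 0.560). *Rpa2* was at 12.0 and 8.39 CPM in WT and 20.2 and 15.1 CPM in transgenic samples (log2 fold change 0.79, SE 0.26, adjusted p = 0.118). *Rpa3* had a log2 fold change of 0.44 (SE 0.28, adjusted p = 0.340) and overlapping groups.

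Of the enzymes that finish Okazaki fragments, the flap endonuclease *Fen1* was at 21.2 and 19.0 CPM in WT and 38.7 and 33.5 CPM in transgenic samples (log2 fold change 0.84, SE 0.13, adjusted p = 0.0342). Of its exon bases, 78.8% lie in exons of the antisense gene *Gm10143*, so this value is uncertain. The ligase *Lig1*, which seals the nick, was at 35.1 and 28.6 CPM in WT and 40.3 and 40.99 CPM in transgenic samples (log2 fold change 0.35, SE 0.13, adjusted p = 0.152). Of the genes that hold the helicase and polymerases together, *Wdhd1* was at 8.02 and 8.67 CPM in WT and 16.2 and 15.5 CPM in transgenic samples (log2 fold change 0.92, SE 0.15, adjusted p = 0.0352). The partners *Tipin* and *Timeless* had log2 fold changes of 0.64 (SE 0.16, adjusted p = 0.0747) and 0.59 (SE 0.16, adjusted p = 0.0809), and neither overlapped between groups.

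Several genes lay close to the threshold of the test. Just inside it were *Mcm6* and *Pole*, at adjusted p = 0.0423 and 0.0391, and the next by adjusted p were *Orc6* and *Pcna*, at 0.0503 and 0.0631. The fold change of *Pcna*, 1.33, was also under the threshold of 1.5, so after *Orc6* the nearest gene with a fold change above it was *Gins2*, at 0.0678. A fold change above 1.5 at any p was found for 27 genes, against 17.1% of all genes. Of these, 10 were not called, and DESeq2 called 6 of them: *Orc6*, *Gins2*, *Prim1*, *Rfc5*, *Rpa2* and *Tipin*, with adjusted p = 0.00467 to 0.0458.

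**Figure D4:**
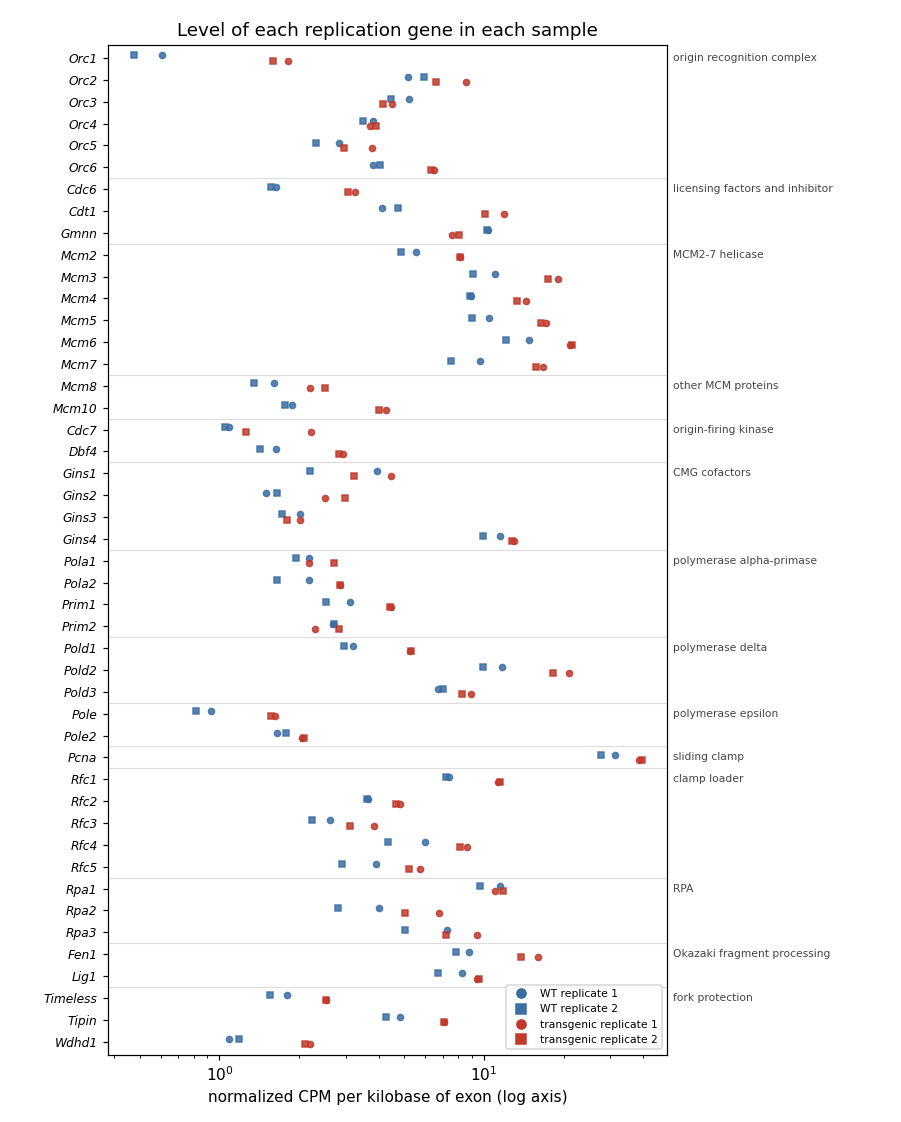
Level of each of the 46 tested replication genes in each of the 4 samples, in TMM-scaled CPM per kilobase of exon on a log axis, grouped by role; colour marks the group and shape the replicate. *Pcna* lies highest and *Orc1* lowest in WT, and the groups overlap for *Rpa1*, *Rpa3*, *Orc3*, *Orc4*, *Gins1*, *Gins3* and *Prim2*.

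Levels spanned a wide range when taken per kilobase of exon. In WT, *Pcna* was highest at 29.4 CPM per kilobase, followed by *Mcm6* at 13.5, *Pold2* at 10.8 and *Gins4* at 10.7. At the low end were *Orc1* at 0.541, *Pole* at 0.872, *Cdc7* at 1.06 and *Wdhd1* at 1.14 CPM per kilobase. In transgenic samples *Pcna* remained highest at 39.0 CPM per kilobase, *Mcm6* reached 21.4 and *Orc1* 1.70. The exon length was the union over annotated transcripts, so genes with rarely used long exons are placed too low.

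Many replication genes carry binding letters of E2F factors, which drive S-phase genes, near their start. RefSeq promoters (GRCm38.p6; windows of 300 bases that end 50 bases after the start) were held for 38 of the 47 genes, as 47 windows. The E2F letters searched, on both strands, were TTTCCCGC, TTTGGCGC, TTTCGCGC and TTTGCCGC; 16 of the 47 windows (34.0%) held at least 1, against 2.26% of all 32851 promoters and 3.33% of the promoters of genes tested. The E-box CACGTG, a MYC-type letter group, was in 14.9% of the windows, against 7.15% of all promoters and 9.07% of those of genes tested. By gene, the E2F letters were in a window of 8 of 15 genes that rose and of 8 of 23 others, and the E-box in a window of 2 of 15 and of 5 of 23. Relative to the RefSeq start of its own window, all E2F matches lay before the start in 7 of these 16 genes and after it in 7 others (*Cdt1*, *Lig1*, *Mcm3*, *Mcm8*, *Pold1*, *Pold3* and *Pole2*), with matches on both sides in *Mcm7* and *Rfc3*. By the same measure the E-box lay before the start in 6 of 7 genes and after it in *Lig1*. Other annotated starts can place a match differently: the GENCODE genes *Orc1*, *Cdc6* and *Mcm7* begin upstream of the matches printed below. *Fen1* has a second RefSeq start upstream of its E-box. Windows were also richer in G and C than promoters at large, with a median of 62.3% against 52.7% for all and 59.7% for genes tested. The median was 57.5% in windows of genes that rose and 63% in those of the other replication genes. Among genes that rose, *Mcm2*, *Mcm10*, *Dbf4*, *Pold2*, *Rfc1*, *Fen1* and *Wdhd1* had no E2F letters in their windows. No window was held for *Mcm4* or *Pole*. The windows below show the E2F letters in capitals for some genes that carry them and that rose strongly or belong to the helicase. *Orc3*, whose log2 fold change was -0.16, is also shown.
Orc1 (chr4:108579416-108579445, plus strand): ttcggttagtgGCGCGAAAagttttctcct
Cdc6 (chr11:98907993-98908040, plus strand): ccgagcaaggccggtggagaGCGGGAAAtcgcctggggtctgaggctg
Cdt1 (chr8:122568036-122568064, plus strand): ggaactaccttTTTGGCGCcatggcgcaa
Mcm3 (chr1:20820266-20820294, minus strand): gGCGGGAAAacttgggaagtTTTGGCGCc
Mcm5 (chr8:75109336-75109387, plus strand): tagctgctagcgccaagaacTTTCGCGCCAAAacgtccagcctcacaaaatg
Mcm6 (chr1:128359725-128359835, minus strand): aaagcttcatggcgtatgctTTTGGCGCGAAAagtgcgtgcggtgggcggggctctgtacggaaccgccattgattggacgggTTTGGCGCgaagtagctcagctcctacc
Mcm7 (chr5:138172030-138172059, minus strand): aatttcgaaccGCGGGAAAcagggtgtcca
Orc3 (chr4:34614956-34615003, minus strand): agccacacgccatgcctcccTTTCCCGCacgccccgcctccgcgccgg

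In *Mcm5* and *Mcm6* matches on the 2 strands overlap in 1 run of capitals, and the *Cdt1* and *Mcm3* letters lie after the RefSeq start. All bases of the printed *Cdt1*, *Mcm3*, *Mcm7* and *Fen1* windows and 23 of the 30 bases of the *Orc1* window lie in annotated exons. The E-box is shown, in capitals, for *Fen1*, which rose, and for *Rpa1*, which did not pass the test.
Fen1 (chr19:10203922-10203951, minus strand): cgcctggcagatCACGTGacgagagcgcgg
Rpa1 (chr11:75348426-75348471, minus strand): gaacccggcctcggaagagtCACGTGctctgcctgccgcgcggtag

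A match of letters is a description of the window and does not show binding. *Orc3* and *Rpa1* carry the same letters as genes that rose.

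Further genes of the pathway, which help to start, check or wrap up replication, had fold changes in the same direction, but 21 were not called. Of 28 such genes 27 were tested, 6 rose and 0 fell, all 27 had a fold change above 0, and the median log2 fold change was 0.73. Of all genes, 5.65% rose, 5.08% fell and 50.9% had a fold change above 0, with a median of 0.01. The 5 with the smallest p were *Uhrf1*, *Topbp1*, *Dnmt1*, *Chaf1a* and *Rnaseh2a*. *Uhrf1*, which guides DNA methylation to new strands, had a log2 fold change of 1.04 (adjusted p = 0.0212), and *Topbp1*, a scaffold of origin firing, one of 0.64 (adjusted p = 0.0234). *Dnmt1*, the maintenance methyltransferase, had one of 0.42 (adjusted p = 0.0374), under the fold threshold. *Chaf1a*, a histone chaperone of the fork, had one of 0.93 (adjusted p = 0.0386) and *Rnaseh2a*, which removes RNA from DNA, one of 0.79 (adjusted p = 0.0487). The other 2 genes that rose were *Ticrr* and *Exo1*. Without transgenic replicate 1, 2 genes of this list were called higher, against 4.2% of all genes, and DESeq2 called 13, against 8.38%. The 3 with the largest p were *Mcmbp* (0.07), *Tonsl* (0.23) and *Pole4* (0.13), with adjusted p = 0.452 to 0.674.

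General markers of dividing cells gave a like picture. Of 13 proliferation markers 4 rose and 0 fell, with a median log2 fold change of 0.76, against the same 5.65% and 5.08% of all genes and median of 0.01. Without transgenic replicate 1, 0 of these markers were called higher by edgeR (4.2% of all genes), without transgenic replicate 2 it called 9 (5.82%), and DESeq2 called 9 with all samples (8.38%). *Ccnb1*, the mitotic cyclin, had a log2 fold change of 0.98 (adjusted p = 0.0431), *Rrm2*, a subunit of ribonucleotide reductase, 0.76 (adjusted p = 0.0702), *Top2a* 0.56 (adjusted p = 0.0496, under the fold threshold) and *Mki67* 0.40 (adjusted p = 0.0821). Besides *Ccnb1*, the markers that rose, named after their values were seen, were *Ccne1* (1.12), *Aurkb* (0.94) and *Ccna2* (0.74), with adjusted p = 0.0395 to 0.0460. The summed counts of the replication genes per *Mki67* count were 7.13 and 5.98 in WT and 6.997 and 7.82 in transgenic samples, so the groups overlapped. In whole-tissue RNA, a larger share of dividing cells and more RNA per dividing cell cannot be told apart.

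Markers of several stomach cell types differed between the groups as well; fewer cells of a type and less RNA per cell cannot be told apart here. Markers of a type fell unequally, from 2.77-fold for *Kcnq1* to 56.6-fold for *Atp4b* among parietal genes, and the chief cell gene *Pga5* had a log2 fold change of 0.02 while *Pgc* fell 63.9-fold. Of all genes tested, 5.08% were called lower and 5.65% higher. Parietal cell markers fell in 6 of 6 genes, with summed levels of 10650 and 10791 CPM in WT and 258 and 308 CPM in transgenic samples. Chief cell markers fell in 3 of 4 genes (82849 and 78449 CPM against 1194 and 1514 CPM), and surface mucous cell markers in 4 of 4 (44889 and 53560 CPM against 10957 and 17193 CPM). Macrophage markers fell in 4 of 5 genes (238 and 245 CPM against 81.1 and 83.0 CPM) and erythroid markers in 1 of 3 (200.2 and 65.0 CPM against 22.3 and 24.8 CPM). No gene was called among 2 mucous neck markers, at 9863 and 12194 CPM in WT and 19714 and 8667 CPM in transgenic samples. None was called among 4 forestomach squamous markers (2000 and 1108 CPM against 636 and 3471 CPM) or 4 smooth muscle markers (6323 and 4039 CPM against 2024 and 4405 CPM). None was called among 6 tested lymphocyte markers (20.1 and 26.8 CPM against 26.8 and 15.8 CPM), nor for the 1 tested of 4 pancreatic acinar markers, of which *Cpa1* and *Prss2* had 0 counts. The part of these differences in the values of the replication genes was not tested. Reads on the mouse *Myc* gene itself numbered 1062 and 759 in the WT libraries against 735 and 1091 in the transgenic ones; human *c-Myc*, the transgene, has no row in the table.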

How the data were processed

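RNA was sequenced from the stomach of mice as 2 WT and 2 *c-Myc* transgenic samples; the design text speaks of triplicates, and 2 samples of each genotype were analysed here. The authors deposited raw read counts per gene symbol. The submitters' processing notes name HISAT2 and the mm10 genome; the counting tool and its strand setting are not given in the sources used here. The labels do not say that samples came from separate animals, so p-values measure the spread between these samples. The transgenic columns were matched, row by row, to the list of symbols put in character-code order. Genes passing filterByExpr were tested with edgeR 4.0.16 (R 4.3.3), with TMM scaling, quasi-likelihood F-tests and Benjamini-Hochberg adjustment over all genes tested. DESeq2 1.42.0, other scalings and filters, the table as deposited and leaving out each sample were alternatives. Groups were taken from the labels.

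All 47 genes are named, with the 5 smallest and 3 largest p of the accessory list and 4 proliferation markers (*Mki67*, *Top2a*, *Ccnb1*, *Rrm2*). Members and lists were chosen with earlier results of these data known, and the gene pairs for ratios after their values were seen. Coordinates and exon lengths came from GENCODE M21 (GRCm38), promoters from RefSeq. The older symbols *2810417H13Rik* and *Gif* were used for *Pclaf* and *Cblif*.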

Additional observations from a re-analysis of the deposited data

How the results depend on the processing

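Direction held for most genes under most alternatives, and the number of calls did not. The table as deposited gave 27 replication genes higher and 15 lower, among 18580 called genes, with a median log2 fold change of 1.24 and 8 proliferation markers higher. Library size without scaling factors gave 26 replication genes, 15 accessory genes and 11 proliferation markers higher, and a median of 0.87. It called 3011 genes in all, 2272 higher and 739 lower. This scaling moved the median of all genes to 0.23 and the share of calls that were higher from 52.6% to 75.5%. DESeq2 called 13 accessory genes and 9 proliferation markers higher, among 3232 genes called, of which 1502 were higher and 1730 lower. Without a filter on low counts, 10 accessory genes and 8 proliferation markers were called higher, among 1326 genes higher of 26731 tested. A log2 fold change above 1 left 3 replication genes, 3 accessory genes and 1 proliferation marker higher. Of all 17643 genes tested it left 1113, with 464 higher and 649 lower. On leaving out 1 sample, the range was 0 to 14 replication genes, 0 to 5 accessory genes, 0 to 9 proliferation markers, 0 to 2470 genes and a median of 0.52 to 0.73; with 1 WT sample left 0 genes passed at all, so those fits do not bear on stability.

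With the replicate number as a block, 0 replication genes, 0 accessory genes, 0 proliferation markers and 114 genes (27 higher, 87 lower) were called; 28 replication genes were higher at an unadjusted p under 0.05, against 14.7% of all genes. Their median log2 fold change was 0.65, with 43 of 46 above 0 and a smallest adjusted p of 0.056. The labels give same-numbered samples only a shared number, so this fit cannot be read as a paired analysis of animals. The correlation of same-numbered deviations was 0.063 over 17643 genes. With 2 samples in each group it cannot show whether such samples had anything else in common.

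Single genes changed sign as follows. Library size without scaling factors gave 0.058 for *Orc3* and 0.16 for *Prim2*. The table as deposited gave -11.89 for *Cdt1*, 2.09 for *Gmnn*, -2.78 for *Mcm6*, -1.33 for *Mcm7*, -0.26 for *Gins2*, -3.02 for *Gins4*, -5.62 for *Pola1*, -12.08 for *Pola2*, -13.07 for *Pold3*, -12.60 for *Rfc2*, -11.23 for *Rfc3*, -11.08 for *Rfc4*, -3.71 for *Rpa3*, -1.57 for *Fen1*, -13.09 for *Lig1* and -3.07 for *Timeless*, where transgenic counts stand beside other gene names. On leaving out 1 sample, the ranges were -0.043 to 0.80 for *Gins1*, -0.081 to 0.15 for *Gins3*, -0.22 to 0.078 for *Prim2* and -0.015 to 0.24 for *Rpa1*. *Cdc45* had too few counts to be tested. The cause of the changes with scaling, tool, filter or sample was not tested.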

Other observations

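Other letter groups near the starts of the replication genes were also counted. CCAAT, the letters bound by NF-Y, was in 51.1% of the 47 promoter windows, against 37.4% of all promoters and 37.0% of those of genes tested. TTTGAA, the core of the cell cycle homology region of late cell cycle genes, was in 17.0%, against 17.9% and 12.7%. Among genes with a window, CCAAT was in a window of 9 of 15 that rose and of 13 of 23 others, and TTTGAA in a window of 4 of 15 and of 3 of 23. *Pold4*, a small subunit of polymerase delta, was, like *Cdc45*, not tested; WT replicates held 5 and 1 of its reads and transgenic replicates 2 and 6.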
